A study of Mus musculus with 7 samples.

Results

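The primary cilium genes described here are 38 mouse genes that build, load or use the primary cilium. They were picked by gene name and not filtered by a measured value, but the list was drawn up with earlier results of these data known. A gene counted as present when a probe of the array carried exactly its name. By that rule 36 of the 38 were found, among 21475 gene names on the array. *Ift46* was reached only through its RefSeq accession, under an older array name, and was kept out of the counts. The expression of *Mks1* was not analysed here.

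RNA was taken from the posterior second heart field (pSHF), the mesoderm behind the heart that supplies the atrial septum, of mouse embryos at embryonic day 9.5, dissected together with the attached foregut. There were 4 pools of *Shh* -/- tissue (*Shh* mutant) and 3 pools of *Shh* +/+ tissue (wild type), each hybridized to 1 single-colour Agilent array. All embryos came from crosses of superovulated *Shh* +/- females with *Shh* +/- males on a background the labels give as C56B/6 and CD-1 mixed. The study asked which genes of this tissue depend on Hedgehog signaling. The mutant embryos lack *Shh* everywhere and not in 1 cell type, and the number of embryos in a pool is not given in the sources used here.

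The 7 arrays lay on 4 slides. Pools 1, 3 and 4 of each genotype shared a slide by number. Each slide carried the mutant pool at its first position and the wild type, where present, at the next, so that genotype cannot be told apart from position. Mutant pool 2 had no partner, and by its label the array may have leaked. On each array, between 60.0% and 70.6% of all probes stood well above background. The 12 second heart field markers looked up, among them *Isl1*, *Tbx5* and *Gata4*, were all well above background on all 7 arrays. The 9 liver bud markers tested had a median change of 0.82 on the log2 scale, mutant minus wild type, and the 8 sclerotome markers tested one of −0.95. Of the sclerotome markers, 2 were higher and 6 lower. These 2 lists had the largest medians of those looked up. The 12 second heart field markers had a median of −0.28, with 5 higher and 7 lower. The 6 erythroid markers, all lower, had a median of −0.39, and the 8 cardiomyocyte markers, all higher, one of 0.25. The 6 neural tube markers tested had one of −0.21. The 9 foregut endoderm markers had one of −0.12, with 2 higher and 7 lower. The 6 endothelial markers tested had a median of 0.06 and the 5 floor plate markers tested one of −0.03. Some marker lists, that of the second heart field among them, thus moved with genotype, and their part in the values below was not tested. In such pools, fewer cells of a type and less RNA per cell cannot be told apart.

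The primary cilium is a single antenna-like projection on most cells of the embryo, built on a basal body. Cargo is carried along it by intraflagellar transport (IFT): IFT-B particles with kinesin motors carry cargo towards the tip, and IFT-A particles with a dynein motor carry it back. The transition zone at its base acts as a gate, and the BBSome moves membrane proteins in and out. In vertebrates, Hedgehog signaling runs through this organelle: Smo enters it once Ptch1 is bound by ligand, and the Gli factors are processed there. Many cilium genes carry in their promoters an X-box, the binding site of RFX transcription factors.

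Promoter sequences from RefSeq (assembly GRCm38.p6, 250 bases before to 50 after each start) were matched for 32 of the 38 genes. They are shown as a description of the genes apart from their names. The X-box half-site, searched as GTTGCCNNG on both strands, was found in 10 of these 32 genes (31.2%), against 5.74% of 27025 genes with a promoter in the same table. Counted by promoter, the shares were 30.3% of 33 and 5.00% of 32851. The core of the GLI site, GACCACC, was found in 1 of the 32 genes, *Ift88* (3.12%), against 3.21% of all genes. A match is a match of letters only. The half-sites lying wholly before the start follow for 4 measured genes, each 5′ to 3′ along the strand of its gene with the half-site in capitals. In *Evc* the match is on the opposite strand, so its capitals show the reverse complement.

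Arl13b: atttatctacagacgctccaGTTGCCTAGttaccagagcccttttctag
Bbs7: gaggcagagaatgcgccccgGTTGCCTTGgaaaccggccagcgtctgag
Evc: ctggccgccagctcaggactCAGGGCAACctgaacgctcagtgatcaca
Ift57: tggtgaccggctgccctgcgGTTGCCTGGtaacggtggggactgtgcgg

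In GRCm38.p6 these windows lie at chr16:62847193-62847241 (minus strand) for *Arl13b*, chr3:36613482-36613530 (minus strand) for *Bbs7*, chr5:37337039-37337087 (minus strand) for *Evc* and chr16:49699214-49699262 (plus strand) for *Ift57*. The half-site began at position −181 from the start in *Arl13b*, −121 in *Bbs7*, −186 in *Evc* and −60 in *Ift57*. *Ift57* held a further one at −87. The 9 measured genes with the half-site had a median change of 0.02 (log2, mutant minus wild type) and the 21 measured genes with a promoter but without it one of −0.03.

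No primary cilium gene passed the test for a difference between *Shh* mutant and wild-type pools. Each gene was read by its brightest probe, as log2 signal after background correction and normalization between arrays, and a change is the mean of the mutants minus the mean of the wild types. With limma and Benjamini-Hochberg adjustment over all 23129 probes tested, 0 of the 36 genes had an adjusted p under 0.05. Of all probes, 0.558% (129) did, so 0 of 36 lies near the background. At an unadjusted p under 0.05 there were also 0 of 36, against 7.96% of all probes (1841). Of all 14892 genes read by their brightest probe, as the 36 were, 1355 (9.1%) passed the unadjusted limit and 116 the adjusted one. The lowest adjusted p among the 36 was 0.897, for *Ift172*. All 36 were well above background on all 7 arrays, so dimness removed none of them.

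The changes were small, and the intervals bound them. Of the 36 genes, 15 were higher and 21 lower in the mutants, with a median of −0.03 and a range of −0.20 (*Rfx3*) to 0.17 (*Ift172*). Over all 14892 genes tested by their brightest probe, the median was 0.03. All 36 of the 95% intervals lay within 2-fold in either direction, against 93.6% of those of all genes tested. The interval ends farthest from 0 were −0.71 for *Rfx3*, a 1.63-fold lower level, and 0.55 for *Bbs7*, a 1.46-fold higher level. These are intervals for single genes, and a miss of the threshold does not show equal levels. The SD between pools of a genotype had a median of 0.13 among the 36, against 0.18 over all genes tested.

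The same arrays registered the loss of the pathway that the cilium serves. *Hhip*, a Hedgehog-binding inhibitor that the pathway induces, was lower by 2.83 on the log2 scale (SE 0.18, limma adjusted p = 0.00126), or 7.09-fold. *Shh* changed by −1.08 (adjusted p = 0.0653), *Ptch1*, the receptor and a target, by −1.17 (adjusted p = 0.142), and *Gli1*, a target and transcription factor, by −1.02 (adjusted p = 0.0673), in the same limma fit. For each of these 4 genes, all 4 mutant pools lay under all 3 wild-type pools. Where the *Shh* probe lies relative to the deleted part of the gene is not given in the sources used here.

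**Figure D1:**
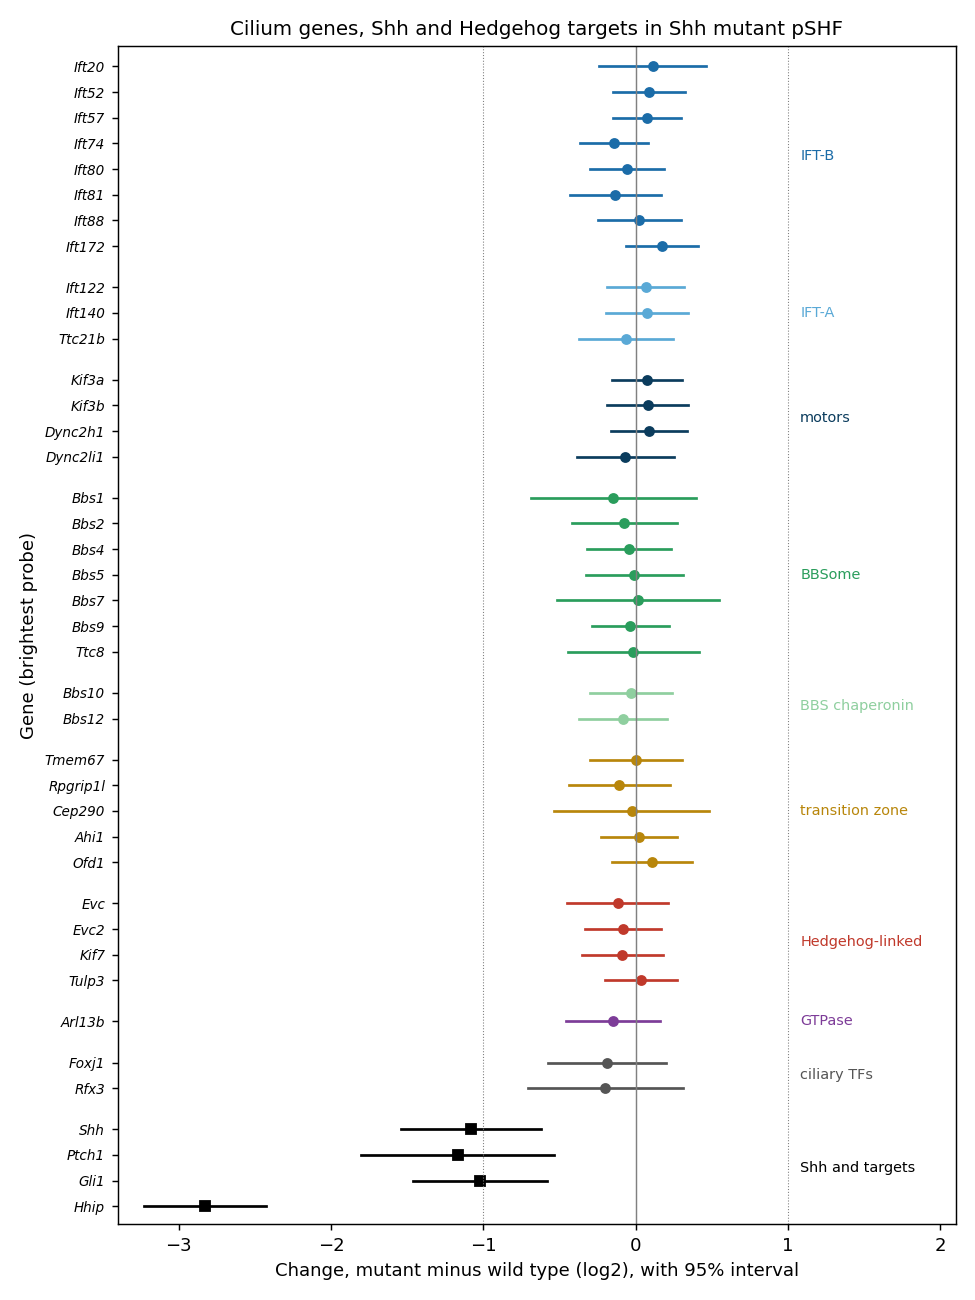
Change between genotypes (x axis, log2, mutant minus wild type) of the 36 primary cilium genes and of Shh with 3 Hedgehog targets (y axis), as a point with its 95% interval from limma, over 4 mutant and 3 wild-type pools; dotted lines mark a 2-fold change. The cilium genes lie between −0.20 and 0.17 with every interval crossing 0 and inside the dotted lines, while Hhip lies at −2.83.

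The transport genes, those of the IFT particles and their motors, had a median change of 0.07, with 10 of 15 higher and 5 lower. Among the 8 IFT-B genes the changes ran from −0.14 (*Ift74*) to 0.17 (*Ift172*), with a median of 0.05. *Ift88*, the IFT-B subunit whose loss is the classical way to remove cilia in the mouse, changed by 0.02 (95% interval −0.25 to 0.30). Of the 3 IFT-A genes, *Ift122* changed by 0.06, *Ift140* by 0.08 and *Ttc21b* by −0.06. Among the motor genes, *Kif3a* and *Kif3b*, the kinesin-2 motor subunits, both changed by 0.08, and *Dync2h1* and *Dync2li1*, the heavy and light intermediate chains of the retrograde dynein, by 0.09 and −0.07.

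*Ift172* had the largest change upwards of the 36. Its probe lies at chr5:31555637-31555696 (mm9, as are all probe positions here). It read 13.22, 13.27, 13.28 and 13.35 in mutant pools 1 to 4, against 13.23, 13.04 and 13.07 in wild-type pools 1, 3 and 4. Mutant pools 2 to 4 lay above every wild-type pool, and mutant pool 1 lay just under wild-type pool 1. The change was 0.17 (SE 0.10, 95% interval −0.07 to 0.41), and its 2 other tested probes gave 0.04 and 0.21.

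*Ift20*, which links ciliary cargo at the Golgi to the IFT-B particle, had the next largest. At chr11:78354490-78354549 it read 14.30, 14.02, 14.23 and 14.66 in the mutant pools, against 14.27, 14.19 and 14.12 in the wild-type pools. The mutants held both the highest and the lowest value. Its change was 0.11 (SE 0.15), and it was −0.01 without mutant pool 4.

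*Ift74*, an IFT-B core subunit that binds tubulin with *Ift81*, was the only one of the 36 genes whose genotypes did not overlap. At chr4:94325234-94325293 it read 11.87, 11.83, 11.86 and 11.88 in the mutant pools and 12.02, 12.06 and 11.92 in the wild-type pools. All mutant pools thus lay under all wild-type pools, although the difference on slide 4 was only −0.04. The change was −0.14 (SE 0.10, 95% interval −0.36 to 0.08), with a limma adjusted p of 0.979. Of all probes tested, 3.58% had every mutant lower and 4.77% every mutant higher, so 1 of 36 lies near the background. *Ift81* changed by −0.13, with −0.10 and −0.14 at its other tested probes, and its genotypes overlapped.

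**Figure D2:**
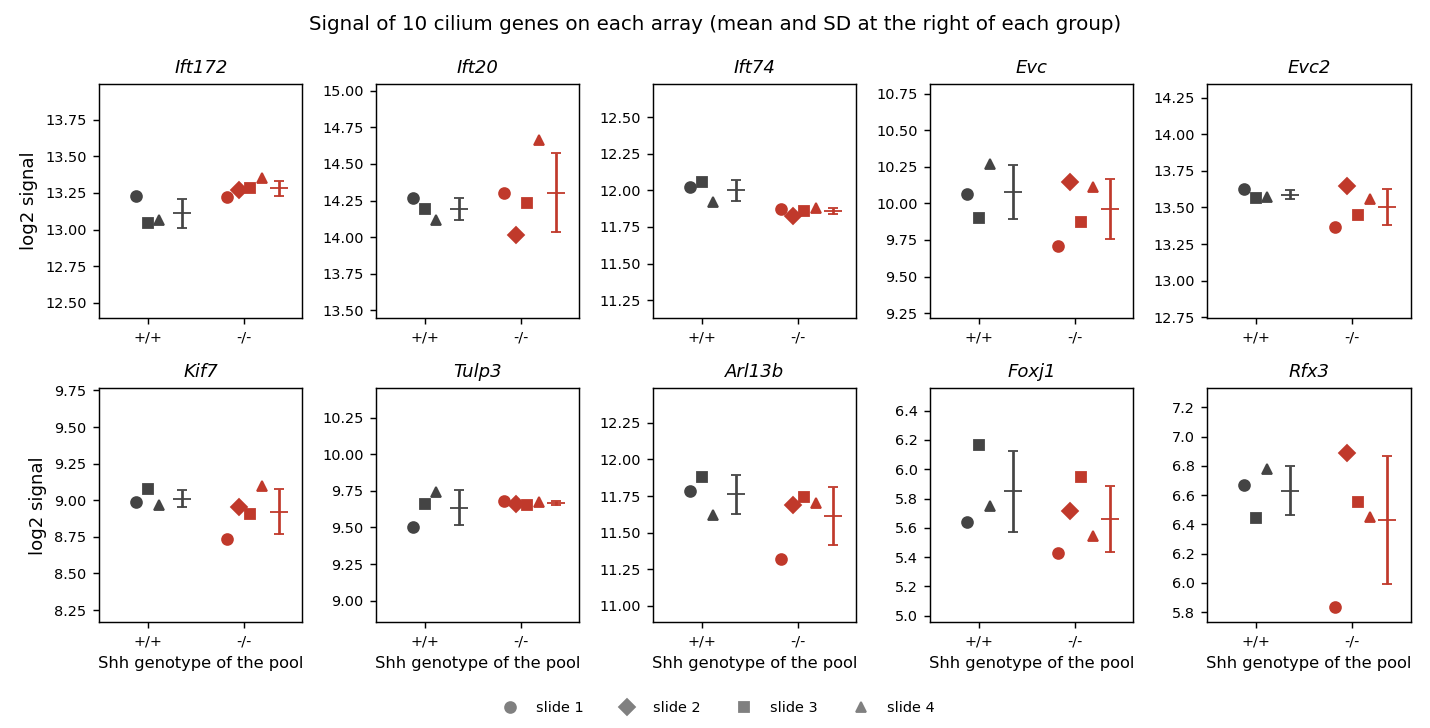
Log2 signal (y axis, of the same span in each panel but at a different level) of 10 primary cilium genes on each array, by Shh genotype of the pool (x axis); point shapes give the slide, and the bars at the right of each group give mean and SD over 3 wild-type or 4 mutant pools. Only Ift74 shows no overlap between genotypes, and mutant pool 1 is the low point for Arl13b and Rfx3.

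The Bardet-Biedl genes, named for the ciliopathy they cause, lay slightly lower as counted, with 8 of 9 under 0, but their median change was −0.03. Against this, 40.5% of all genes tested were lower. Among the 7 subunits of the BBSome coat the changes ran from −0.15 (*Bbs1*) to 0.02 (*Bbs7*). The chaperonin-like genes *Bbs10* and *Bbs12*, needed to assemble that coat, changed by −0.03 and −0.08. *Bbs1* was the least evenly read, at 5.78, 6.10, 5.70 and 5.04 in the mutant pools against 5.69, 5.62 and 6.11 in the wild-type pools. Its difference on slide 4 was −1.06, while those on slides 1 and 3 were 0.10 and 0.08.

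The transition zone and basal body genes had a median change of 0.00, with 3 of 5 higher and 2 lower. They ran from −0.11 (*Rpgrip1l*) to 0.11 (*Ofd1*, a centriole and basal body protein on the X chromosome). *Tmem67*, a membrane protein of the gate, changed by 0.00, *Ahi1* by 0.02 and *Cep290*, a structural protein of the gate, by −0.03. *Cep290* read 8.89, 8.81, 8.28 and 7.93 in the mutant pools, around the narrow wild-type values of 8.43, 8.51 and 8.57. Its SD was 0.455 in the mutants and 0.07 in the wild types. The other tested probe of *Cep290* did not repeat this, with an SD of 0.19 in the mutants and 0.17 in the wild types. *Rpgrip1l* had 3 tested probes, with changes of −0.21, −0.11 and 0.19, and at the first of these all mutant pools lay under all wild-type pools. That probe was dim. It cleared the background on 2 of the 4 mutant arrays and on all 3 wild-type arrays, and it was tested only through the wild types.

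The 4 genes with the most direct role in Hedgehog signaling at the cilium had a median change of −0.08, with 1 higher and 3 lower. Without mutant pool 1 the median was −0.03. *Evc* and *Evc2* form a complex at the base of the cilium that passes the signal on from Smo. *Evc* (chr5:37690559-37690618) read 9.71, 10.14, 9.87 and 10.11 in the mutant pools against 10.07, 9.90 and 10.27 in the wild-type pools. Its values overlapped widely, and its change was −0.12 (SE 0.15).

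*Evc2* (chr5:37816219-37816278) read 13.37, 13.65, 13.45 and 13.56 in the mutant pools against 13.62, 13.57 and 13.57 in the wild-type pools. Mutant pool 2 held the highest value of the 7 and the other mutant pools the 3 lowest. The change was −0.08 (SE 0.11), and its other tested probe gave 0.02.

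*Kif7*, the kinesin that organizes the ciliary tip and regulates Gli processing there, lies at chr7:86843288-86843347 by its probe. It read 8.73, 8.95, 8.90 and 9.10 in the mutant pools against 8.99, 9.08 and 8.96 in the wild-type pools. Mutant pool 4 held the highest value and the other mutant pools the 3 lowest. The change was −0.09 (SE 0.12, 95% interval −0.35 to 0.18).

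*Tulp3*, an adaptor between IFT-A and membrane receptors and a repressor of the pathway, was the most even of the 36 in the mutants. It read 9.68, 9.66, 9.66 and 9.67 in the mutant pools against 9.51, 9.66 and 9.74 in the wild-type pools. The mutant values fell inside the wild-type range. The change was 0.03 (SE 0.10).

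*Arl13b* encodes a small GTPase of the ciliary membrane that is used as a marker of the organelle. Its probe spans chr16:62811821-62812987. It read 11.32, 11.69, 11.74 and 11.70 in the mutant pools against 11.78, 11.88 and 11.62 in the wild-type pools. Mutant pool 1 was low and the other mutant pools lay inside the wild-type range. The change was −0.15 (SE 0.14), or −0.05 without mutant pool 1, and the 2 other tested probes gave −0.05 and 0.07.

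Of the 2 transcription factors, *Rfx3* binds the X-box of ciliary promoters and *Foxj1* drives the program of motile cilia. *Foxj1* (chr11:116192214-116192273) read 5.43, 5.72, 5.95 and 5.54 in the mutant pools against 5.64, 6.16 and 5.75 in the wild-type pools. The groups overlapped, but the difference on each slide was similar, at −0.21, −0.22 and −0.21 on slides 1, 3 and 4. The change was −0.19 (SE 0.17), or −0.03 without wild-type pool 3.

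*Rfx3* (chr19:27879946-27880005) read 5.84, 6.89, 6.55 and 6.45 in the mutant pools against 6.67, 6.45 and 6.78 in the wild-type pools. Mutant pool 1 was the lowest and mutant pool 2 the highest of all. The change was −0.20 (SE 0.23), the largest downwards of the 36. It rested on mutant pool 1, since without that pool the change was −3e-04, and its other tested probe gave 0.12. Opposite signs between probes of 1 gene were common: of the 18 genes with more than 1 tested probe, 9 had probes on both sides of 0. None of the 63 tested probes of the 36 genes reached an unadjusted p under 0.05.

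Same-slide pairs gave no common direction either. The median difference of the 36 genes was −0.12 on slide 1, 0.00 on slide 3 and 0.08 on slide 4, where all genes tested had medians of −0.01, −0.01 and 0.12. On slides 1, 3 and 4, 22, 19 and 15 of the 36 were lower in the mutant. Only 7 of the 36 (19.4%) had the same sign on all 3 slides, against 29.1% of all genes tested. These were *Ift74*, *Bbs12*, *Evc*, *Evc2* and *Foxj1*, lower on each, and *Ift20* and *Ofd1*, higher on each. The Hedgehog-linked genes had medians of −0.26, −0.07 and −0.04 on the 3 slides. With the slide as a replicate block, a fit in which mutant pool 2 carries no information, 11 probes were called in all, none of the 36 genes was among them, and the median of the 36 was 0.02.

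**Figure D3:**
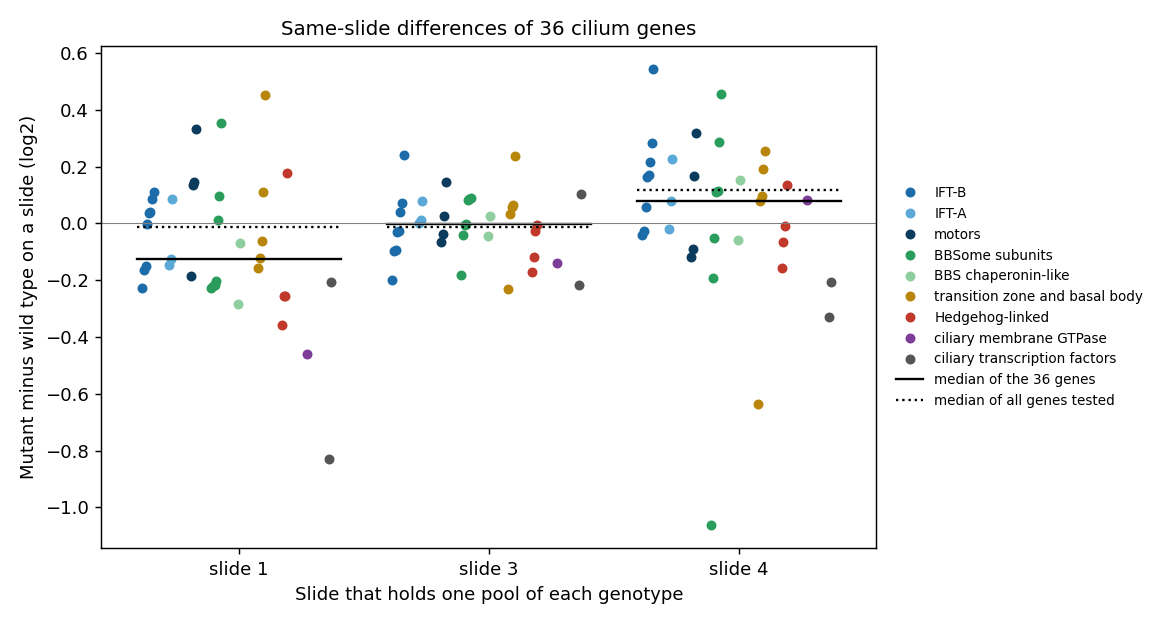
Difference between the mutant and the wild-type pool of a slide (y axis, log2) for each of the 36 primary cilium genes on slides 1, 3 and 4 (x axis), coloured by role; solid lines give the median of the 36 genes and dotted lines that of all genes tested. The solid lines lie at −0.12, 0.00 and 0.08, and those of all genes tested at −0.01, −0.01 and 0.12.

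A wider list of cilium genes was read in the same way, of which 89 were on the array and 79 were tested. None of these 79 had a limma adjusted p under 0.05, against 116 of all 14892 genes tested by their brightest probe, so 0 of 79 lies near the background. An unadjusted p under 0.05 was reached by 3 (3.80%), all lower in the mutants, against 9.1% of those 14892 genes. The median changes were 0.04 for 16 other transport genes, 0.01 for 5 other Bardet-Biedl genes, 0.01 for 26 other transition zone and basal body genes, 0.03 for 17 other membrane and Hedgehog-linked genes and −0.09 for 15 genes of motile cilia. The pathway's own components at the cilium were among these: *Smo* changed by −0.05, *Sufu*, which holds Gli proteins back, by 0.03, *Gli2* by 0.08 and *Gli3* by 0.15.

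*Rfx4*, an RFX factor best known from the neural tube, had the largest change of the wider list. It read 4.89, 4.21, 4.51 and 4.63 in the mutant pools against 5.04, 5.68 and 5.11 in the wild-type pools, and its signal cleared the background in 3 of the 4 mutant arrays and in all 3 wild-type arrays. All mutant pools lay under all wild-type pools, although mutant and wild-type pool 1 were close. It was tested only through the wild types, where it was higher. The measured change was −0.72 (SE 0.20, 95% interval −1.18 to −0.26, limma adjusted p = 0.235). With signals under the lowest level well above background raised to that level, the mutant mean was lower by 1.47-fold. That value leaves out the spread between pools and is not a lower limit. Beside *Rfx4*, the 6 neural tube markers tested all had changes under 0, but of unlike size. They ran from −0.03 (*Pax6*) and −0.04 (*Tubb3*) to −1.42 (*Neurog2*, SE 0.92), and 1 of the 6 had an unadjusted limma p under 0.05. *Neurog2* among them cleared the background on 3 of the 4 mutant arrays, and in mutant pool 1 it read 8.38, above every wild-type pool. The mean log2 level over the neural tube markers on the array, which include 4 dim ones that were not tested, ran from 5.68 to 6.08 in the mutant pools and from 6.23 to 6.35 in the wild-type pools. The largest changes within that mean were those of *Dbx1* (−1.87, not tested), *Neurog2* and *Nkx6-1* (−0.85), and only *Sox1* (0.17, not tested) was higher. *Dbx1* was well above background on 0 of the 4 mutant arrays and on 1 of the 3 wild-type arrays. Of the neural tube markers, *Sox1* and *Irx3* were not well above background in any wild-type pool. *Pax6*, *Olig2*, *Nkx6-1* and *Tubb3* were well above it on all 7 arrays, and *Neurog1* and *Neurog2* on all 3 wild-type arrays. The part of neural tissue in the *Rfx4* value was not tested.

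*Adcy3*, an adenylyl cyclase of the ciliary membrane, changed by −0.38 (SE 0.15, limma adjusted p = 0.555), and its genotypes overlapped. Upwards, *Rsph1*, a radial spoke gene of motile cilia, changed by 0.38 (SE 0.22), *Cc2d2a*, a transition zone gene, by 0.21 (SE 0.17) and *Rpgrip1*, a partner of the same gate, by 0.19 (SE 0.54). None of these upward changes reached an unadjusted p under 0.05.

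**Figure D4:**
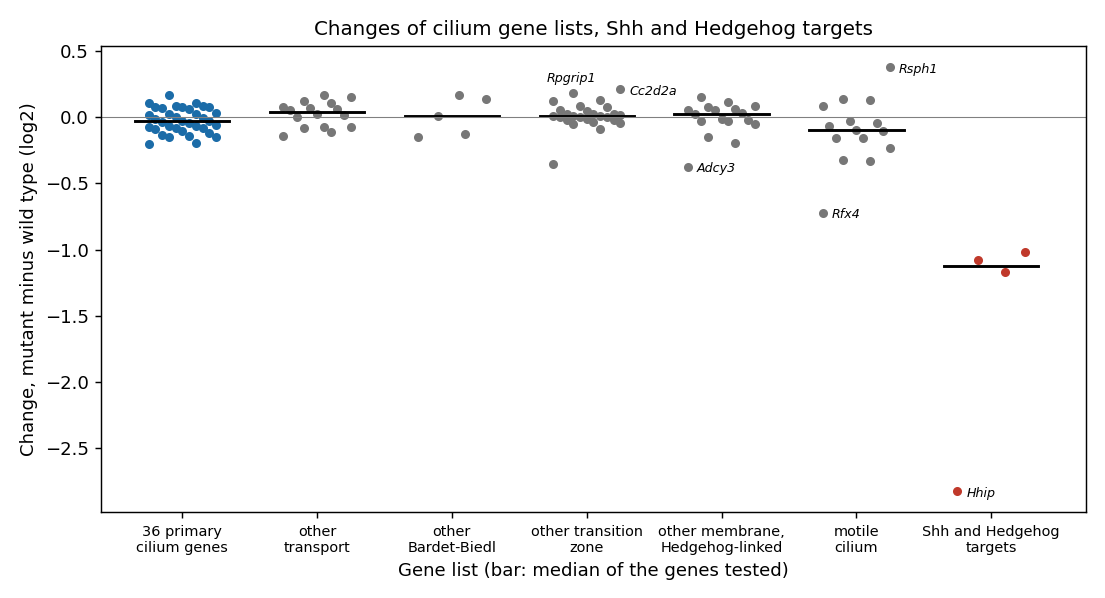
Change between genotypes (y axis, log2, mutant minus wild type) of each tested gene in the 36 primary cilium genes, 5 further cilium gene lists, and Shh with 3 Hedgehog targets (x axis); bars give list medians. The cilium lists have medians between −0.09 and 0.04, and Shh with the 3 Hedgehog targets has one of −1.12.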

How the data were processed

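RNA of 7 tissue pools was hybridized to Agilent mouse arrays with a single dye. The deposited scan files hold the intensity of each spot and of its local background, which the authors read with Feature Extraction 10.5.1.1. A separate file holds the authors' normalized log2 values, whose array medians ran from 5.50 to 9.93. Their scale and centring are not stated, and they served only as an alternative. Genotype and replicate number came from the labels, whose strain and genotype entries are exchanged and were read by content.

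The background of the mean signals was removed by normexp, from the mean and SD of 153 negative control spots, with an offset of 50, outlier spots (155 to 206 per array) were left out, and arrays were brought together by an own implementation of VSN (7 iterations over 5 strata, trimming share 0.9), following the named steps of the study's methods. No spot was saturated. Probes were tested when they carried a gene name and stood well above background on all arrays of 1 genotype or of both. Genotypes were compared with limma 3.58.1 in R 4.3.3 (with the package data.table, version 1.17.8), with Benjamini-Hochberg adjustment over 23129 probes and no block. The probe with the highest mean over the 7 arrays stood for its gene. Steps were tested on simulated data. Figures used matplotlib 3.10.9 in Python 3.11.15.

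The members and lists were chosen with earlier results of these data known. Genes described with every array's value were those whose genotypes did not overlap, the Hedgehog-linked genes, *Arl13b*, *Foxj1*, *Rfx3* and the 2 largest changes in each direction. *Bbs1* and *Cep290* were added after their values were seen. Of the wider list, the 3 largest changes in each direction were to be named (a gene that the rule picked is not reported here), and *Smo*, *Sufu*, *Gli2* and *Gli3* were added after their values were seen.

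The replicate number marks a shared slide by the labels. Deviations from the genotype means correlated at 0.19, 0.24 and 0.03 within slides, against −0.22 to 0.19 between slides. Whether pools came from separate litters is not given in the sources used here. If they did not, p-values cover only the spread between these pools. The number of arrays limits the precision. Alternatives were quantile normalization, scaling to the 75th percentile, outlier spots kept, no background correction, the authors' values, other filters on dim probes, slide as a fixed or random block, a variance trend with robust estimation, the mean of all tested probes, and each array left out. The authors' values with array medians set equal, and the filter requiring at least 1 array, were added after seeing the data. Probe positions are those of the array files (mm9), and promoters are RefSeq sequences of GRCm38.p6.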

Additional observations from a re-analysis of the deposited data

Results flagged for a closer look

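In 2 of the 36 groups of 4 mutant values, 1 pool stood apart from the others, and chance gives about 1 in 20 such groups. For *Dync2h1*, mutant pool 4 read 10.98 against 11.24, 11.24 and 11.22 in mutant pools 1 to 3, and the gap made up 0.926 of the range of the 4. Without that pool nothing was called for it. At the 2 next brightest probes of *Dync2h1*, mutant pool 4 read 10.30 and 9.49, inside the range of the other mutant pools. At 2 dimmer tested probes it was again the lowest mutant pool, at 7.65 and 4.83. For *Arl13b*, mutant pool 1 read 11.32 against 11.69, 11.74 and 11.70, and the gap made up 0.871 of the range. Both gaps lie above the 95% critical value of Dixon's test. At the 2 other tested probes of *Arl13b*, mutant pool 1 did not stand low. It read 10.68, the highest mutant value, and 10.27, inside the range of the other mutant pools. Groups of 3 wild-type pools were not examined in this way.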

How the results depend on the processing

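No primary cilium gene and no gene of the wider cilium list was called under any of the 20 alternatives. The lowest limma adjusted p of a primary cilium gene was 0.585, for *Ift74* under quantile normalization. Some alternatives called few probes of any kind, against 129 in the main fit. The authors' values gave 0, as deposited and with array medians set equal, the replicate block 11, and no filter on dim probes 33. With so few calls in all, the absence of cilium genes there decides nothing. In the main fit, too, 0 of the 36 lay near the background. The sign of most changes turned: leaving aside the authors' values as deposited, whose unequal array medians (mutant pool 2 at 5.50) moved the median of all genes, 13 of the 36 kept theirs under the other 19, 6 higher and 7 lower. Among these, *Rfx3* came to −3e-04 without mutant pool 1. The cause of the other turns was not tested.

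Scaling to the 75th percentile gave 54 probes called, a Bardet-Biedl median of −0.0824, and changes of −0.0222 for *Ift88*, −0.0166 for *Bbs7* and for *Ahi1* and −0.0273 for *Tmem67*. Quantile normalization gave a transport median of 0.0144, and −0.0181 for *Ift88*, −0.0078 for *Tmem67*, −0.0198 for *Ahi1* and −2e-04 for *Tulp3*. Without background correction these 4 genes had −0.0124, −0.017, −0.0136 and −0.0068. The mean of all tested probes gave a transport median of 0.0235, *Kif3a* −0.0015 and *Dync2h1* −0.02. Without a filter on dim probes, or with 1 array sufficient, 33 probes were called.

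In the authors' values as deposited the median of all genes tested was −0.53, and 0 probes were called. The medians were −0.6415 for the primary cilium genes, −0.5519 for transport, −0.6635 for Bardet-Biedl, −0.6223 for transition zone and −0.6745 for Hedgehog-linked genes. This shift also took under 0 these changes, given as over 0 in the report: *Ift20* −0.2774, *Ift52* −0.5364, *Ift57* −0.5306, *Ift88* −0.6252, *Ift172* −0.3407, *Ift122* −0.4078, *Ift140* −0.5499, *Kif3a* −0.5722, *Kif3b* −0.5178, *Dync2h1* −0.5519, *Bbs7* −0.5494, *Tmem67* −0.61, *Ahi1* −0.6223, *Ofd1* −0.4821 and *Tulp3* −0.6183. With array medians set equal, 0 probes were called and the turned changes were *Ift88* −0.0163, *Bbs1* 0.0371, *Tmem67* −0.0011, *Ahi1* −0.0134, *Evc2* 0.0708, *Tulp3* −0.0094 and *Foxj1* 0.044.

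With the replicate block, 11 probes were called, the median of the primary cilium genes was 0.0179, and *Ttc21b* changed by 0.0025, *Dync2li1* by 0.0223, *Bbs5* by 0.0577, *Ttc8* by 0.0628 and *Rpgrip1l* by 0.0134. No cilium gene was among those 11 probes, too few calls to decide on cilium genes.

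With 1 array left out, 12 (without mutant pool 3) to 136 probes were called. The median of the primary cilium genes ran from −0.0504 to 0.0179 (without mutant pool 2) and that of the Bardet-Biedl genes from −0.0879 to −0.0313, that of the Hedgehog-linked genes from −0.123 to −0.0294 (without mutant pool 1), that of the transport genes from 0.0439 to 0.0703, and that of the transition zone genes from −0.0131 to 0.0519. Changes that turned ran from −0.0077 to 0.2077 for *Ift20*, −0.0601 to 0.1024 for *Ift88*, −0.1287 to 0.0025 for *Ttc21b*, −0.024 to 0.1375 for *Kif3b*, −0.1508 to 0.0223 for *Dync2li1*, −0.2953 to 0.0572 for *Bbs1*, −0.1773 to 0.0781 for *Bbs2*, −0.1166 to 0.0582 for *Bbs4*, −0.1335 to 0.0912 for *Bbs5*, −0.1446 to 0.2777 for *Bbs7*, −0.0844 to 0.0533 for *Bbs9*, −0.1204 to 0.1147 for *Ttc8*, −0.1181 to 0.0671 for *Bbs10*, −0.1564 to 0.0025 for *Bbs12*, −0.0931 to 0.053 for *Tmem67*, −0.1684 to 0.0134 for *Rpgrip1l*, −0.163 to 0.1563 for *Cep290*, −0.0328 to 0.0604 for *Ahi1* and −0.0315 to 0.0856 for *Tulp3*.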

Other observations

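*Ift46*, an IFT-B subunit listed on the array as *1500035H01Rik* and matched by its RefSeq accession, read 14.25, 14.43, 14.36 and 14.66 in the mutant pools against 14.54, 14.46 and 14.17 in the wild-type pools. The groups overlapped, and the change was 0.04 (SE 0.14). Of the genes of motile cilia, 24 were on the array and 15 were tested. Among the others, *Spag6*, *Dnaic2*, *Lrrc6* and *Foxn4* never stood well above background.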
